A study of Mus musculus with 1 sample.

Results

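The 87 cytosolic ribosomal protein genes described here were taken by name from the 32285 genes counted in mouse gastric organoids, in 1 library of single-cell RNA. A gene was a member if its symbol was Rpl or Rps followed by a number, or Rplp0, Rplp1, Rplp2, Rpsa or Fau. Pseudogenes and ribosomal protein kinases were left out. Of the 87 members, 78 encode canonical subunits, 46 of the large and 32 of the small subunit, and the other 9 are paralogs or genes with a similar name. The organoids, epithelial cultures from stomach, were labelled wild type and untreated, and were dissociated on day 7 in 0.05% trypsin for 30 min at 37 °C. No second genotype, treatment or replicate was analysed here, so no difference was tested and every interval covers counting error only.

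The library was prepared with a 10x Genomics 3′ kit, which counts transcripts as unique molecular identifiers (UMIs). Of 1991 barcodes, 1892 had at least 500 detected genes and at most 20% mitochondrially encoded UMIs and were kept, with 20118334 gene UMIs in all. The median cell had 8512.5 gene UMIs (range 890 to 47183). The 5 epithelial markers had a UMI in 52.1% (Cdh1) to 99.6% (Krt18) of cells. Of 13 markers of other tissues, 4 had no UMI, and the most widespread, Csf1r, was found in 13 cells (0.687%). Of 15 markers of gastric lineages, 3 were found in at least 10% of cells: Tff1, Gkn1 and Gkn2, which mark pit cells. The pit cell mucin Muc5ac, also on that list, had a UMI in 2.38% of cells.

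A cytosolic ribosome joins a small subunit, which reads the mRNA, to a large subunit, which forms the peptide bond. Each ribosomal protein is present in a single copy per ribosome apart from the stalk proteins Rplp1 and Rplp2, so cells make these proteins in matched amounts. Much of the matching happens at translation: many of these mRNAs begin with a run of pyrimidines, the 5′ terminal oligopyrimidine (TOP) motif, through which mTOR and Larp1 control them together. In renewing epithelia such as that of the stomach, ribosome production accompanies growth and division.

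The bases around the annotated transcription start show this feature and its limits. Each stretch below runs 5′ to 3′ on the gene's strand from 10 bases before to 20 bases into the first RefSeq entry of the gene (GRCm38.p6), and capitals mark runs of at least 8 bases made only of C and T. The first 3 are among the 10 most abundant members, Rps27 and Rpl22l1 belong to paralog pairs described later, and the last 4 were chosen because abundant or departing members can lack such a run there.
Fau, chr19:6057937-6057966, plus strand: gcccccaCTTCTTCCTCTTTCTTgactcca
Rpl27a, chr7:109519185-109519214, plus strand: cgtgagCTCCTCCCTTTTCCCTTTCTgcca
Rps10, chr17:27635225-27635254, minus strand: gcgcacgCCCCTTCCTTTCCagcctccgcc
Rps27, chr3:90213629-90213658, minus strand: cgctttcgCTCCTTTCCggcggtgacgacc
Rpl22l1, chr3:28805498-28805527, plus strand: gcgcaagcccgTTCTCTTCCCacggctgca
Rps27l, chr9:66946076-66946105, plus strand: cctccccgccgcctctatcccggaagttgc
Rpl23, chr11:97782420-97782449, minus strand: gtccggtcacgtggctgagtgggcggggcc
Rplp0, chr5:115559457-115559486, plus strand: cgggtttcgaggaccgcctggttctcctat
Rpl6, chr5:121204491-121204520, plus strand: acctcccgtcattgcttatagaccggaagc

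Of the 87 members, 67 had an entry in the promoter table, 58 of them canonical. A C or T run of at least 8 bases lay between 15 bases before and 25 after the annotated start in 26 of the 58 (44.8%), against 15% of 17492 coding genes. Rps27l had a run of 9 bases in that wider window, of which 7 are printed. An annotated start can differ from the start used in these cells, so a missing run says only that these letters are not in this window. The letters CCGGAAG, searched on both strands of the 300 bases from 250 before to 50 after the start, were in 39.7% of the canonical members and 11.9% of coding genes. The letters TATAAA were in 8.62% against 13.3%, and GGGGCGGGG in 6.90% against 15.5%, counted in the same way. The reverse complement of CCGGAAG begins with C and T letters, so it can overlap a run of these.

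The members held 7235943 UMIs, 36.0% of all gene UMIs (95% Clopper-Pearson interval 35.9% to 36.0%), although they are 0.269% of the genes. Over cells, the summed share had its lowest value at 3.94%, its median at 35.8% and its highest at 58.7%. The central 90% of cells ran from 24.2% to 44.9%, and the quartiles were 31.8% and 39.2%. At the median cell, with 3090 member UMIs, counting alone gives an SD of 0.519 percentage points, while the SD over cells was 6.67. The share therefore varied beyond counting, with an extra-Poisson coefficient of variation (CV, the relative SD left after counting noise is subtracted) of 0.145.

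The share had a weak correlation with depth over the 1892 cells (Spearman's rho 0.177) and almost none with the number of detected genes (-0.012). It was lower where mitochondrially encoded genes (rho -0.256) or the nuclear noncoding RNA Malat1 (rho -0.350) took a larger share. These quantities come from the same UMI totals, so a larger share of one class leaves less for the others. In 50 cells (2.64%) the members held under 20%. Those cells had medians of 3029 UMIs, 1099 genes, 10.6% mitochondrially encoded UMIs and 14.7% Malat1 UMIs, against 8688, 2249.5, 4.02% and 1.41% in all other cells. At the other end, 10 cells were above 50%, with a median of 8051.5 UMIs and of 0.0545% Malat1 UMIs. The part of RNA quality in this spread was not tested.

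Large and small subunit transcripts moved together from cell to cell. Canonical large subunit genes had 4016542 UMIs and small subunit genes 3164432, a ratio of 1.27, so that 55.9% of canonical UMIs were of the large subunit. The large subunit has more genes: the median level per gene was 4157 counts per 1000000 gene UMIs (CPM) for the large and 4471 CPM for the small subunit. The ratio lay between 1.13 and 1.51 in the central 95% of cells, and the shares of the 2 subunits had a rho of 0.914 over cells. Both are shares of the same cell total, so a change in any other class of UMIs moves both in the same direction.

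Nearly all canonical members were found in nearly every cell, at levels that differed between genes. A 3′ kit counts a transcript once whatever its length, so CPM were compared between genes without division by length. Ribosomal protein genes have many processed pseudogenes, and how many reads of each gene the authors' counting lost or divided for that reason cannot be seen from the counts. The median canonical level was 4230 CPM, and the quartiles were 3226 and 5726 CPM. Canonical members held 99.2% of member UMIs. A UMI was found in at least 99% of cells for 74 of 78, and in 98.0% for the least widespread. The median cell held a UMI of 82 members and the poorest cell of 55.

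**Figure D1:**
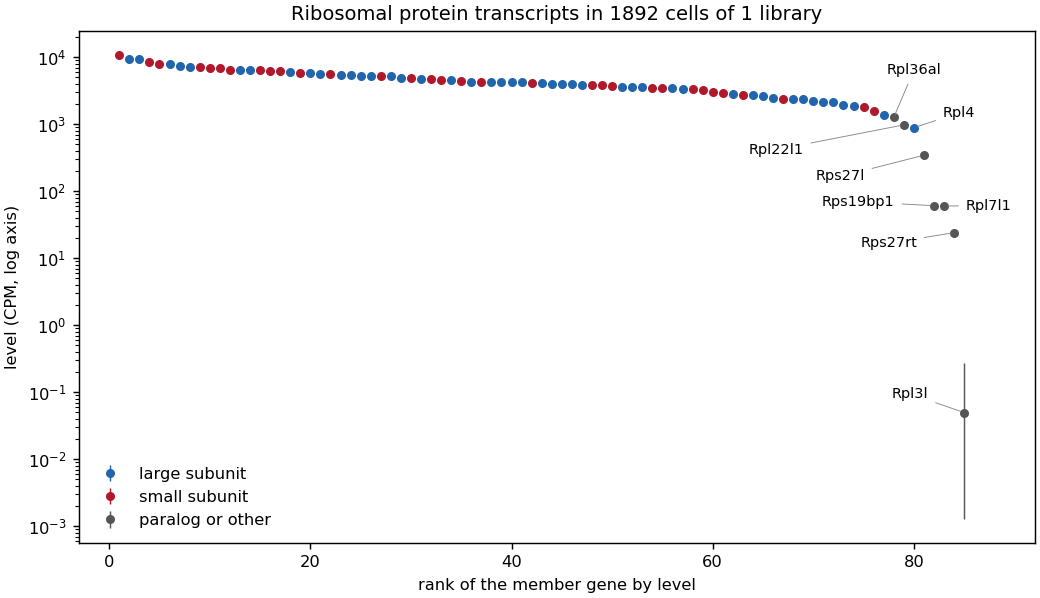
Level of the 85 members with a UMI, in CPM on a log axis, against their rank by level; blue points are canonical large subunit genes, red points small subunit genes and grey points the other members, with exact Poisson 95% intervals that are smaller than the point except for Rpl3l. The canonical genes lie at 889 CPM or more, and the other members lie at 1264 CPM or less.

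Among the most abundant members were the large subunit genes Rpl23, at 9564 CPM (9521 to 9606) and a median of 79 UMIs per cell (24 at the 5th and 251 at the 95th percentile), and Rpl13, at 9415 CPM. Fau, whose product is made as a fusion of a ubiquitin-like protein with a small subunit protein, was at 8462 CPM. Rps21 (7999 CPM), the stalk gene Rplp1 (7454 CPM), Rpl27a (7179 CPM), Rps10 (7155 CPM) and Rps16 (6986 CPM) were also among the 10 highest, which together held 23.1% of member UMIs.

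The lowest canonical gene was Rpl4 at 889 CPM (876 to 902), still with a UMI in 98.0% of cells and a median of 7 UMIs per cell. Also among the 5 lowest were Rpl31 (1377 CPM), Rps6 (1596 CPM) and Rpl36a (1879 CPM). Rps6 encodes the subunit protein that the S6 kinases phosphorylate. The intervals of these 4 genes did not overlap.

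The 9 other members fell into a group near the canonical genes and a group far below them. Rpl36al, a paralog of Rpl36a, reached 1264 CPM beside 1879 CPM for Rpl36a. Rpl22l1 reached 979 CPM beside 2710 CPM for its paralog Rpl22, with a UMI in 97.0% of cells. Rps27l was at 345 CPM beside 3326 CPM for Rps27, with a UMI in 87.9% of cells. UMIs of these 3 paralogs were thus found in most barcodes beside those of the canonical gene. How many of these UMIs were free RNA was not measured.

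Rps19bp1, which encodes a protein that binds Rps19 and is no subunit, was at 60.8 CPM. Rpl7l1, a paralog of Rpl7 (2873 CPM) with a part in large subunit assembly, was at 60.2 CPM. Rps27rt, a retrocopy of Rps27, was at 24.1 CPM, and reads of its parent could be assigned to it by the counting. Rpl3l, the striated muscle paralog of Rpl3 (1968 CPM), had 1 UMI. Rpl10l and Rpl39l, paralogs of the X-linked Rpl10 (3650 CPM) and Rpl39 (5462 CPM) known from testis, had a count of 0. At the limit of 3 counts, that allows up to 0.159% of cells with a UMI and a level of up to 0.149 CPM. The 3 paralogs known from muscle or testis were therefore at or under the detection limit.

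Cells were clustered without the members, so that the members do not define the groups. The 6 clusters held 529, 463, 426, 312, 100 and 62 cells. Leading them by fold were Aox3 and Scgb3a1 in cluster 1, Cxcl5 and Cxcl2 in cluster 2, AC168977.1 and 2610528A11Rik in cluster 3, Ly6m and Ndrg1 in cluster 4, the mitotic genes Aspm and Knl1 in cluster 5, and Cyba and Reg3g in cluster 6. Clusters are called by number, and cells of a cluster are not replicates.

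The members' summed share was 39.4% in cluster 3, 38.1% in cluster 1, 36.2% in cluster 4, 33.9% in cluster 5, and 33.4% in both cluster 2 and cluster 6. The highest was 1.18-fold the lowest. Clusters 3 and 1 had the shallowest cells (medians of 6386.5 and 6968 UMIs), while the others had medians between 10953 and 14365.5 UMIs. Clusters overlapped widely, since 84.6% of the variance of the share lay within clusters. Median Malat1 shares were 0.681% and 0.733% in clusters 1 and 3, and 2.62% and 2.59% in clusters 2 and 4. In clusters 5 and 6 they were 1.03% and 1.45%. The part of depth and of Malat1 in the order of clusters was not tested.

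**Figure D2:**
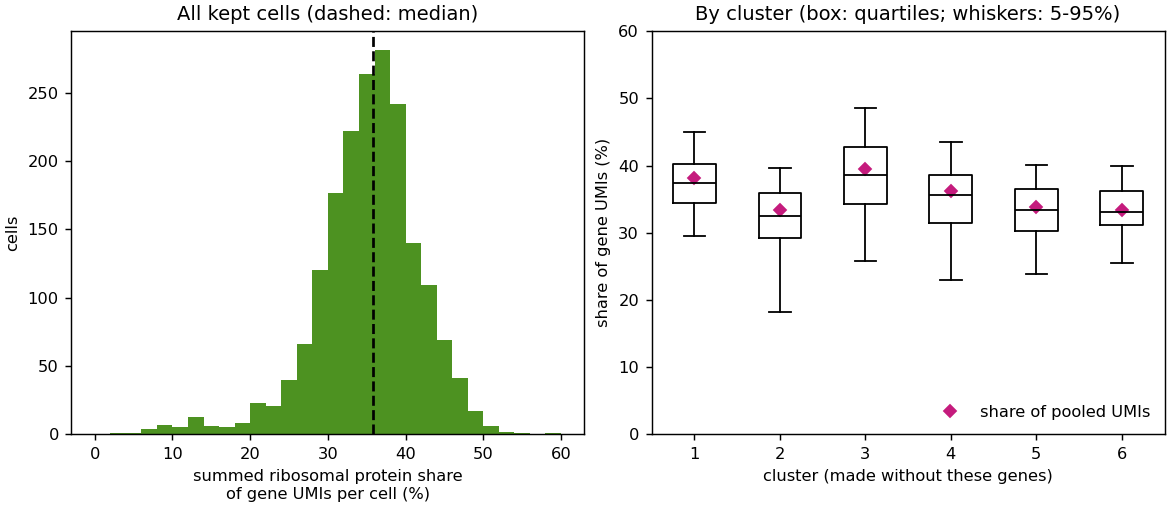
Left, number of cells by summed ribosomal protein share of gene UMIs in percent, with the median of 35.8% dashed; right, the share per cell in each cluster, with boxes from the 25th to the 75th percentile, whiskers from the 5th to the 95th, a line at the median and a diamond at the share of the cluster's pooled UMIs. A thin tail of 50 cells lies under 20%, and the boxes of all 6 clusters overlap one another.

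The share differed little with the cell cycle. It was 36.2% in 1452 cells called G1, 36.0% in 265 cells called S and 34.4% in 175 cells called G2/M. S and G2/M cells together stood at 0.972 of G1 cells (0.970 to 0.974), and G2/M cells alone at 0.951 (0.948 to 0.953). G2/M cells were deeper, with a median of 11270 UMIs against 8606.5 in G1.

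Single members varied less from cell to cell than other genes. Of the 84 members with at least 200 UMIs, 6 had an extra-Poisson CV over 0.3, against 75.5% of all 6682 genes with as many UMIs. The median CV was 0.213 for members and 0.434 for all genes. Since the estimate depends on level, it was also taken among genes with at least 20000 UMIs, where 3 of 78 members and 56 of 72 other genes were over 0.3. The members' medians were 0.212 there and the others' 0.461.

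Across clusters, 1 of 504 combinations of a member and a cluster passed 1.5-fold in either direction against all other cells: Rps27l in cluster 6. No member passed in clusters 1 to 5, where 17.4%, 11.5%, 23.8%, 13.3% and 12.6% of all genes did, and 1 of 84 did in cluster 6, where 34.3% of all genes did. Relative to member UMIs the count was 3, with Rpl7l1 (1.58) and Rps19bp1 (1.56) past 1.5-fold in cluster 6 as well, and at a clustering resolution of 1.0 it was also 3. The highest cluster was 1.30-fold the lowest for the median canonical member. The flattest canonical gene was Rps9 (1.08-fold). The widest was Fau (1.76-fold), with 11258 CPM in cluster 3 down to 6405 CPM in cluster 6.

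To see which members departed from the common pattern, each was also expressed relative to the cell's member UMIs. On that scale the median CV was 0.152, and 61 of 84 members were under 0.2. Among the 10 largest were Rps27l (0.69), Rpl23a (0.39), Rpl22l1 (0.35), Rpl7l1 (0.32), Rps27rt (0.32), Rpl12 (0.30), Rpl5 (0.30), Rps25 (0.30) and Rpl21 (0.29). They include 4 of the paralogs and, as shown next, members of both sets of canonical genes that moved together. Of those paralogs, Rpl7l1 had 1211 UMIs and Rps27rt 484, with a median of 0 UMIs per cell for each. Their CVs rest on few counts and have no interval, so their place among the 10 is uncertain.

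Relative to the summed members, Rpl23a, which lies near the exit of the peptide tunnel, stood at 1.24 in cluster 2 and 1.30 in cluster 4 but 0.71 in cluster 1 and 0.75 in cluster 3. Rps25, a small subunit protein that takes part in initiation at viral internal ribosome entry sites, stood at 1.33 in cluster 2 and 0.69 in cluster 3. Rpl3, which lies near the peptidyl transferase centre, had another order, with 1.23 and 1.26 in clusters 1 and 2 and 0.69 and 0.75 in clusters 3 and 4. Fau stood at 1.27 in cluster 3 and 0.81 in clusters 2 and 6. Rpl23a and Rps25 were thus both high in cluster 2 and low in cluster 3, where Fau was the reverse, while Rpl3 was high in clusters 1 and 2.

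Rps27l had the largest departure. Its product is close in sequence to Rps27, and the gene is a known target of the tumour suppressor p53. Its level was 961 CPM (901 to 1023) in the 62 cells of cluster 6 and 312 CPM (304 to 320) in all other cells, a ratio of 3.08 (2.87 to 3.29). Among single cells the 5th percentile, the median and the 95th percentile were 115, 754 and 2449 CPM in cluster 6, and 0, 283 and 691 CPM elsewhere. The ranges overlapped, and 85.5% of the cells of cluster 6 were above the median of the others.

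Its relatives did not share this ratio. Rps27 stood at 0.863 in cluster 6, Rps27rt at 1.38 (0.939 to 1.97), Rpl22 at 0.788 and Rpl22l1 at 1.32 (1.25 to 1.40). The gene of p53 and 5 of its targets, a list chosen with earlier results of these data known, were also compared. Of all 6682 tested genes, 17.9% were at least 1.5-fold higher in cluster 6. The ratios were 4.82 for Trp53, which had fewer than 200 UMIs and is not among the tested genes, 11.1 for Cdkn1a, which encodes a cell cycle inhibitor, 5.25 for Ccng1, 3.83 for Phlda3, 3.13 for Bax, which encodes a death effector, and 2.66 for Mdm2, which encodes the ligase that degrades p53. Within cluster 6, Rps27l and the summed 5 targets had a rho of 0.723 over 62 cells, and outside it 0.021 over 1830 cells. The 5 targets had a mean of 9.94 UMIs per cell inside and 1.56 outside, so the 2 values of rho rest on unequal counts and cannot be compared.

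Other measures moved with cluster 6 as well. Of its 62 cells, 39 (62.9%) were called S or G2/M, against 401 of 1830 (21.9%) elsewhere, and its median depth was 14365.5 UMIs against 8300.5. A Y-linked UMI was found in 53.2% of its cells and in 0.929% of the others. The most abundant multiplexing tag (an oligonucleotide that marks cells before pooling) held a median of 70.1% of a cell's tag UMIs in cluster 6 and 83.2% elsewhere. The labels do not say whether the cells of cluster 6 came from another culture or animal, so such a source and a state of the cells cannot be told apart in any value of cluster 6. The part of these measures in the Rps27l level was not tested.

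Pairs of members were then compared over cells, each relative to the summed others, for the 80 members with at least 10000 UMIs. The median of the 3160 correlations was -0.014 (Pearson's r), 40 were over 0.3 and 16 over 0.5. All pairs share the library and the cells' depths, so these values are descriptions. Pairs on the same chromosome had a median r of 0.117 (202 pairs) and pairs on different chromosomes of -0.020 (2958 pairs). Without chromosome 5 the same-chromosome median was 0.110. Average linkage at a mean r of 0.3 gave 2 groups of at least 3 genes, 3 groups of 2 genes and 61 genes in no group. The 2 larger groups are described here.

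**Figure D3:**
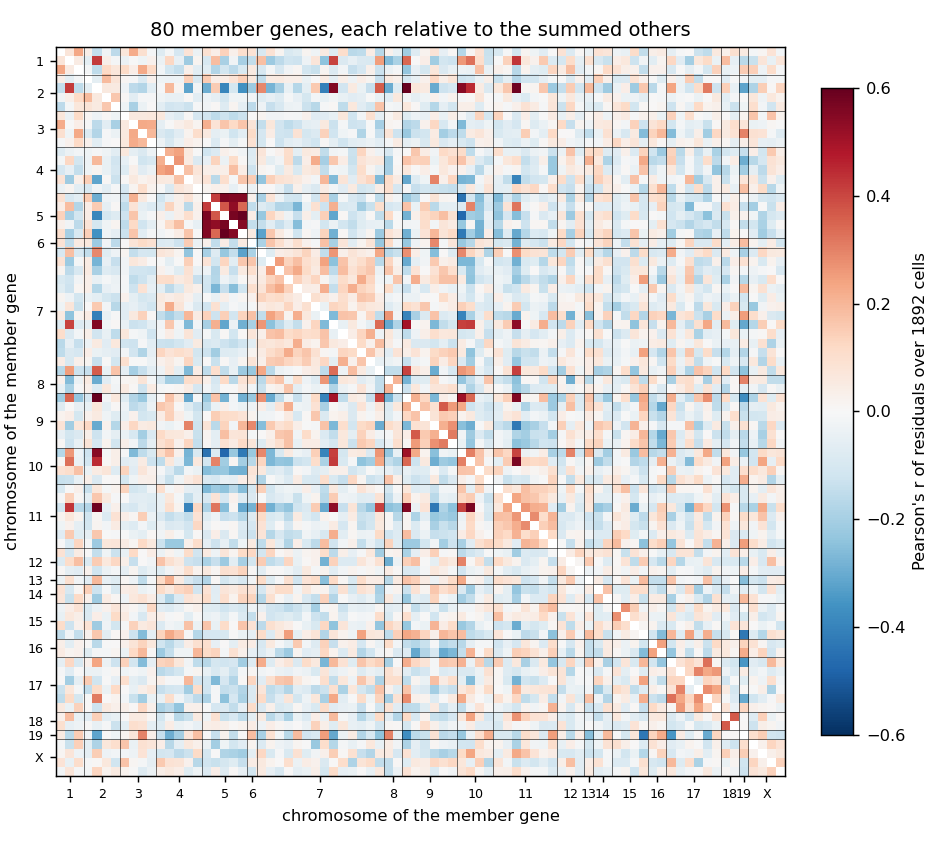
Pearson's r over 1892 cells between 80 members, each relative to the summed others, with genes ordered by chromosome on both axes and thin lines between chromosomes; red is positive, blue negative, and the diagonal is blank. The 5 genes of chromosome 5 form a dark square, pale squares lie along the diagonal at chromosomes 7, 9, 11 and 17, and a lattice of red squares joins 8 genes of 6 chromosomes.

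One group was the 5 members on chromosome 5 and no others, with a median r of 0.552 between them. They are Rpl9, Rpl5, Rplp0, Rpl6 and Rpl21, all of the large subunit. Rplp0 is the base of the stalk that recruits elongation factors, and Rpl5 forms with Rpl11 and 5S rRNA the particle that can bind Mdm2. The highest of all 3160 correlations was between Rplp0 and Rpl21 (0.63), and the lowest, -0.47, was between Rplp0 and Rps12.

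The other group held 8 members from 6 chromosomes, among them Rpl31, Rpl12, Rplp2, Rps25, Rps12, Rps15 and Rpl23a, with a median r of 0.409. Its highest correlations were Rpl12 with Rps25 (0.61) and Rpl12 with Rpl23a (0.59). The 8 genes come from both subunits and no chromosome holds more than 2 of them. They held 7.10% of member UMIs, with 4.24% at the 5th and 9.31% at the 95th percentile of cells. Their share of member UMIs had a rho of 0.480 with the Malat1 share, 0.272 with the mitochondrial share, 0.234 with depth and -0.179 with the summed member share. Its median was 8.22% in cluster 6, 8.0% in cluster 2, 7.53% in cluster 4, 7.10% in cluster 5, 6.34% in cluster 1 and 6.01% in cluster 3. The part of RNA quality in this group was not tested.

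The chromosome 5 group was followed with genes that are not members. For each chromosome, cells were ranked by the share of its other genes in the cell's non-member UMIs, and the members of that chromosome were compared between the highest and the lowest tercile (630 cells each). On chromosome 5 the members held 7.30% of member UMIs in the high tercile and 4.65% in the low tercile, a ratio of 1.57 (1.56 to 1.58). On the other 19 chromosomes with members the ratio ran from 0.985 to 1.16, with a median of 1.05. The highest of those were chromosome 18 at 1.16 and chromosome 4 at 1.10. The rho over cells between members and other genes was 0.781 on chromosome 5 and between -0.086 and 0.295 elsewhere. The 2 terciles of chromosome 5 had median depths of 7892 and 8583.5 UMIs.

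All 5 genes differed between the terciles. In GRCm38 coordinates of GENCODE, Rpl9 lies at chr5:65388364-65391444 on the minus strand, and the others lie on the plus strand: Rpl5 at chr5:107900502-107909005, Rplp0 at chr5:115559467-115563727, Rpl6 at chr5:121204481-121209241 and Rpl21 at chr5:146832890-146837032. Counts cover whole genes, mostly through the 3′ ends.

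Rpl9 was at 5152 CPM in the high tercile and 3776 CPM in the low tercile, a ratio of 1.36 (1.34 to 1.39). Rpl5 was at 2522 and 1929 CPM, a ratio of 1.31 (1.28 to 1.34). Rplp0 was at 6306 and 4561 CPM, a ratio of 1.38 (1.36 to 1.40). For each of these 3 genes the cells ranked high by other chromosome 5 genes had the higher level. Rpl6 was at 6230 and 4576 CPM, a ratio of 1.36 (1.34 to 1.38). Rpl21 was at 4174 and 2869 CPM, a ratio of 1.45 (1.43 to 1.48). Relative to member UMIs, which removes the difference in the summed share between the terciles, the 5 ratios were between 1.49 (Rpl5) and 1.66 (Rpl21).

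Among the 84 tested members, 6 were at least 1.25-fold higher in the high tercile: the 5 of chromosome 5 and Rps19bp1 (1.32). Of all tested genes, 31.7% were. That fraction includes the 461 tested non-members of chromosome 5, which took part in ranking the cells and so raise it. The 79 members of other chromosomes had a median ratio of 0.865, from 0.720 (Rps12) to 1.32 (Rps19bp1). The 6133 tested non-members of other chromosomes had a median ratio of 1.11. The high tercile had the lower summed share, 33.4% against 38.1%. The members of chromosome 5 thus stood higher in CPM in cells where most other members stood lower.

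The share of the chromosome 5 members had more than 1 peak over cells. Among 1034 cells with at least 8000 UMIs, whose median was 4652.5 member UMIs, 216 cells lay between 4.5% and 5% of member UMIs. The number fell to 64 between 6% and 6.5% and was 98 between 6.5% and 7% and 86 between 7% and 7.5%. Counting alone gives an SD of 0.320 percentage points at 5% and 0.374 at 7%. A value of 6.25%, chosen after this histogram had been seen, divided the cells for description.

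**Figure D4:**
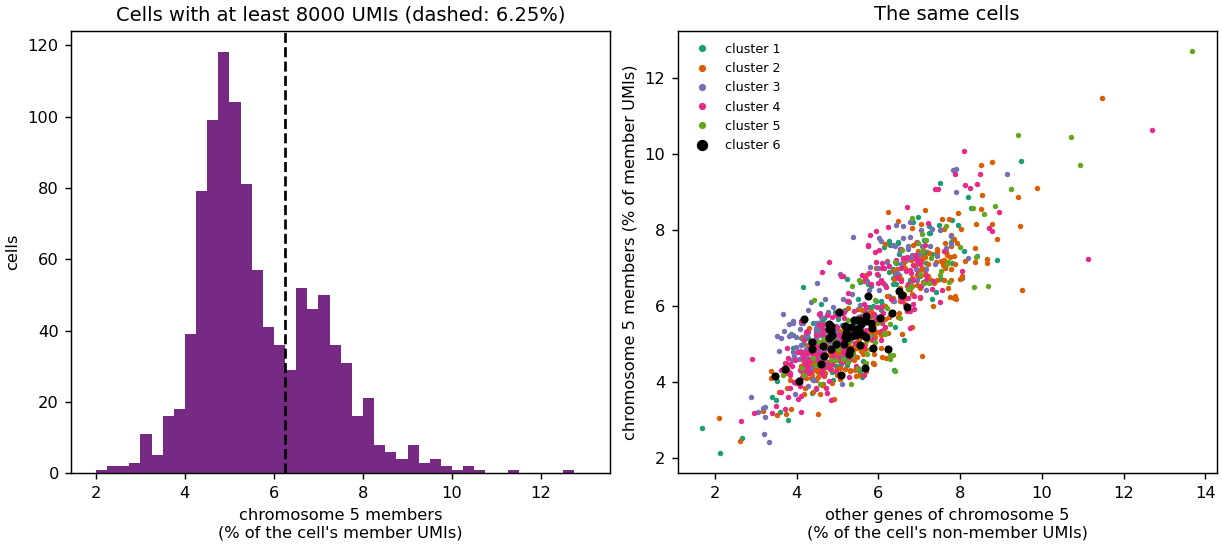
Cells with at least 8000 UMIs: left, number of cells by the chromosome 5 members' percent of the cell's member UMIs, with 6.25% dashed; right, the same percent against the percent of the cell's non-member UMIs from other chromosome 5 genes, coloured by cluster. The cells form a dense cloud near 5% and a second one near 7%, and the black points of cluster 6 stay at or below 6.40%.

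Of 1892 cells, 748 (39.5%) were at or above 6.25%, and 119 cells lay between 6% and 6.5%. Among the deeper 1034 cells 31.1% were above. The fraction was 39.5% among cells of each of the multiplexing tags CMO301 and CMO302, 38.9% in G1 and 41.6% in cycling cells. By cluster it was 39.1%, 39.7%, 46.7%, 35.9% and 42.0% in clusters 1 to 5. Cluster 6 stood apart, with 4 of 62 cells (6.45%, interval 1.79% to 15.7%), and its highest cell was at 6.40%; the doubt about the source of its cells holds here too. Cells above 6.25% were thus found with both tags, in G1 and cycling cells and in every cluster, with cluster 6 far below the other 5.

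In the cells above 6.25%, the other genes of chromosome 5, which had no part in that choice, held 7.12% of non-member UMIs against 4.96% in the cells below, a ratio of 1.44 (1.43 to 1.44). Of 461 such genes with at least 200 UMIs, 98.3% had a ratio over 1, and the median ratio was 1.42. On every other chromosome with members, the median ratio over genes was between 0.968 and 1.01, and the pooled ratio between 0.894 (chromosome 14) and 1.01. In this division of cells, made by chromosome 5 members only, a difference of this size was seen on chromosome 5 and on none of the other 19. The members and other genes of chromosome 5 were already correlated over cells above, so this is the same pattern seen another way.

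It was spread along the chromosome. In windows of 25 Mb from the start of chromosome 5, the pooled ratios of non-members were 1.39, 1.48, 1.41, 1.42, 1.44, 1.43 and, past 150 Mb, 1.39. That last window had 3 genes with at least 200 UMIs. Of 75 non-members with at least 2000 UMIs, 73 were over 1, with a median of 1.47 and a range from 0.774 (Plac8) to 2.13. Among the most abundant, Actb stood at 1.0, Chchd2 at 1.57, Hspb1 at 1.64 and Cox6a1 at 1.79.

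**Figure D5:**
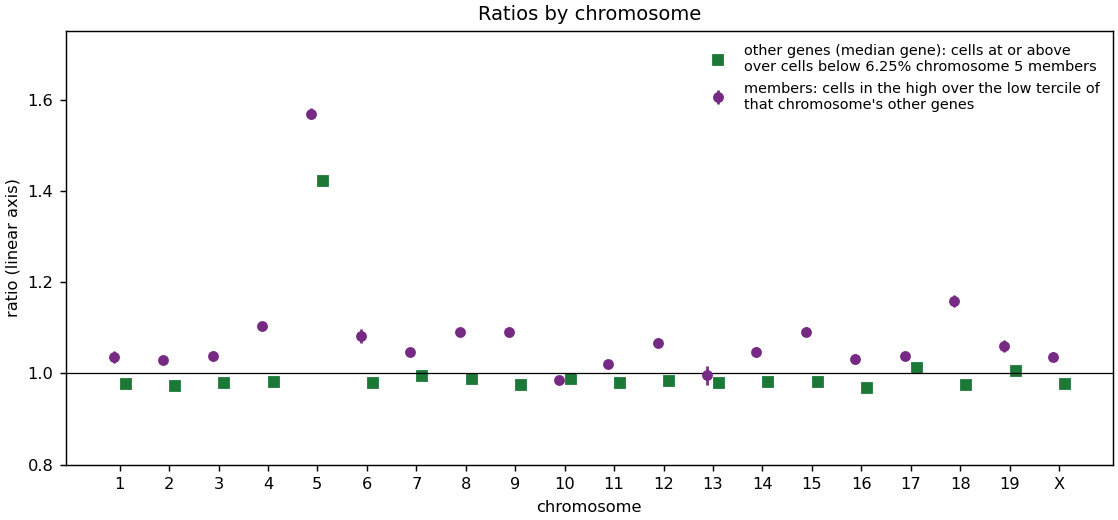
Ratios by chromosome on a linear axis. Purple circles are members of a chromosome as a share of member UMIs in the high over the low tercile of cells ranked by that chromosome's other genes, with 95% counting intervals; green squares are the median ratio of a chromosome's other genes between cells at or above and cells below 6.25% chromosome 5 members. Chromosome 5 stands at 1.57 and 1.42, and every other chromosome lies between 0.968 and 1.16.

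Cells above 6.25% had a median of 7286 UMIs and 2059 genes, against 9590.5 UMIs and 2337.5 genes in cells below. Their median summed member share was 33.2% against 37.1%, their Malat1 share 0.989% against 1.8%, and their mitochondrial share 4.24% against 3.93%. DNA copy number was not measured, and whether it or any of these quantities has a part in the chromosome 5 values was not tested.

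Genes whose pattern over cells was most like the summed members were sought among 1039 non-members with at least 2000 UMIs, by the rho between a gene's share of non-member UMIs and the member share over 1892 cells. The median rho was 0.045. Among the 10 highest were Gm10076, a pseudogene in RefSeq (0.691), the elongation factor Eef1a1 (0.668), the 40S-bound scaffold Rack1 (0.613), 2410006H16Rik (0.602), Tpt1 (0.596), the nascent chain factor Naca (0.573), Eef1b2 (0.564), the snoRNA host Gas5 (0.525) and Eef1d (0.518).

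The 10 lowest were Malat1 (-0.303), Por (-0.292), Atp2a2 (-0.233), Prxl2a (-0.203), Pgap1 (-0.200), Prom1 (-0.198), Neat1 (-0.191), Sptbn1 (-0.183), Cox6a1 (-0.179) and Thbs1 (-0.175). Malat1 and Neat1 are nuclear noncoding RNAs. Por, Atp2a2, Prom1 and Cox6a1, 4 of the 10, lie on chromosome 5, as do 75 of the 1039 genes.

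Cells were also divided into terciles by the member share, 41.7% in the high and 29.4% in the low tercile, with median depths of 9428.5 and 7887.5 UMIs. Levels of other genes were taken as CPM of non-member UMIs, so that the members' own share does not dilute them. Of 6598 non-members, 9.53% were at least 1.25-fold higher and 22.4% at least 1.25-fold lower in the high tercile, with a median ratio of 0.939. Of 18 translation factors and other genes known to have TOP mRNAs, 16 were higher and 0 lower, with a median ratio of 1.57. Malat1 moved the other way, with 23789 CPM of non-member UMIs in the high and 52064 in the low tercile, and its part in these list values was not tested. In the high and the low tercile Tpt1 was at 12737 and 8334 CPM, Eef1a1 at 8049 and 4938, and Rack1 at 4452 and 2798. All 7 tested hosts of small nucleolar RNAs (8 listed), which also have TOP transcripts, were higher, with a median ratio of 1.77. Examples were Snhg1 at 2.18, Gas5 at 1.77 and Zfas1 at 1.76.

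Genes that build ribosomes, control TOP translation or drive ribosome production were counted against the same background of 9.53% higher and 22.4% lower. Of 22 assembly factors, 19 were tested, 0 were higher and 3 lower, with a median ratio of 0.880. Ncl, the nucleolar protein nucleolin, was at 764 and 873 CPM, a ratio of 0.876, and the methyltransferase Fbl stood at 0.813. Of 9 genes of such control, Myc among them, 7 were tested, 1 was higher and 2 lower, with a median of 0.900: Eif4ebp1, a target of mTOR, stood at 1.30, Larp1 at 0.930, Mtor at 0.882, the S6 kinase gene Rps6kb1 at 0.773, and Myc, a transcription factor that drives ribosome production, at 0.682.

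The 78 mitochondrial ribosomal protein genes, which build the ribosome inside mitochondria, were the closest gene family for comparison. Of 77 tested, 15 were higher and 4 lower, beside 9.53% and 22.4% of all non-members, with a median ratio of 1.06. Mrpl30 stood at 1.57 and Mrpl52 at 1.40, while Mrpl33, on chromosome 5, stood at 0.816. The fraction of higher genes in this family was thus between that of the assembly list and that of the TOP list.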

How the data were processed

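The authors deposited raw UMI counts per gene and barcode, without normalization. Cell Ranger 6.1.2 and GRCm38/mm10 are named in the submitters' processing notes. The annotation the authors counted against is not given in the sources used here. Tag counts were kept out of all totals. Members and lists were chosen with earlier results of these data known.

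Levels are CPM of summed UMIs with exact Poisson intervals, shares carry Clopper-Pearson intervals, and ratios exact conditional binomial intervals, all at 95%. Limits for a count of 0 use 3 counts. PCR copies of a UMI are counted once, and the intervals cover counting error only. Clusters used scanpy 1.11.5 and leidenalg 0.10.2 (counts scaled to 10000 per cell, ln(x + 1), 2000 variable genes without members, mitochondrially encoded, cell cycle and sex-linked genes, 30 components, 15 neighbours, resolution 0.6, seed 0). Phases came from scanpy scores. Scrublet called 12 doublets, which were kept and removed as an alternative. Extra-Poisson CV is the square root of the sum of (x − μ)² − μ over the sum of μ², with μ expected from the cell's total. The CV and the ratio with its interval were tested on simulated Poisson counts, and the other steps were not tested in this way.

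Named genes are the 10 highest and 5 lowest canonical members, all non-canonical members with their paralogs, the 10 largest CVs relative to members, members past 1.5-fold in a cluster, up to 6 genes a list, and the 10 highest and lowest correlations with the share. Genes of the correlated groups, of chromosome 5 and single examples beside them were chosen after their values were seen. Some genes that this rule takes are not reported here.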

Additional observations from a re-analysis of the deposited data

How the results depend on the processing

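No paired analysis was possible because all cells come from 1 library. Of 53 alternative values for 8 results, 21 stayed within the main interval or 1.5 times a count, 32 moved and 0 reversed. The alternatives for the chromosome 5 ratio and for the Rps27l ratio, and the omission of cluster 6 were chosen after seeing the data.

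The member share of 36.0% was 36.1% with at least 1000 genes and at most 10% mitochondrial UMIs (1815 cells), 35.8% without a filter, 35.2% as a mean over cells, 35.7% for canonical subunits, 38.5% without Malat1 and mitochondrial genes in the total, 35.6% with cells thinned to 3000 UMIs (57 cells left out), 36.1% and 35.8% for tags CMO301 and CMO302, and 36.1% without cluster 6. The large to small ratio of 1.27 was 1.28 with thinned cells and 1.28 when all members were sorted by name. The highest to lowest cluster share of 1.18 was 1.12 at resolution 0.3, 1.29 at resolution 1.0, 1.13 with 1000 variable genes, 1.16 with members open to the clustering, 1.23 without doublets, 1.20 as means, 1.18 for canonical subunits and 1.19 without Malat1 and mitochondrial genes. Combinations of member and cluster past 1.5-fold went from 1 to 3 at resolution 1.0 and to 3 relative to member UMIs, where Rpl7l1 (1.58) and Rps19bp1 (1.56) joined Rps27l (3.32) in cluster 6. The cycling to G1 ratio of 0.972 was 0.970 without doublets, 0.983 with thinned cells and 0.965 with Mki67 or Top2a UMIs as the call. The chromosome 5 ratio of 1.57 was 1.54 in cells with at least 8000 UMIs, 1.53 with thinned cells, 1.58 in G1 cells, 1.53 when cells were ranked on odd rows of the gene list, and 1.38 in CPM. The Rps27l ratio ran from 2.84 to 3.45. The cause of these shifts was not tested.

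Depth limits the members under 200 UMIs, for which no CV or ratio was taken. With 1 library, none of the differences between cells has a replicate check.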
